A study of Homo sapiens with 12 samples.

Results

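The subject of this report is the set of ZNF genes in the zinc finger gene clusters of 19q13.4, near the long-arm end of human chromosome 19. Members were chosen by name and place alone: every gene of the count tables whose GENCODE 29 symbol starts with ZNF and a digit, and whose start lies at or beyond 51 Mb on chromosome 19 of GRCh38. This gave 109 genes of the 58735 in the tables, of which 99 were protein coding, 4 were pseudogenes and 6 were antisense RNAs, lincRNAs or processed transcripts. The first member was ZNF175 (start 51571298) and the last was ZNF446 (start 58474017). The nearest ZNF gene outside the limit was ZNF473 (start 50025714), with 323, 258 and 297 wild-type counts and 355, 361 and 354 knockout counts. ZNF175, just inside it, had 96, 66 and 71 wild-type counts and 102, 102 and 98 knockout counts.

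The libraries came from HAP1, a near-haploid human line derived from a chronic myelogenous leukemia, either wild type or with SETDB1 knocked out. Both genotypes were grown in the same medium with serum and antibiotics, with no other treatment named in the labels, and total RNA was sequenced. Each genotype had 3 libraries from a non-directional kit, in which the strand of origin is lost, and 3 from a directional kit, and the titles number them as biological replicates. All comparisons below use the 3 wild-type and 3 knockout non-directional libraries. The labels do not say whether the knockout is a single clone or how SETDB1 was disrupted, so effects of SETDB1 and of the derived line cannot be told apart.

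Most genes of these clusters encode C2H2 zinc finger proteins, in which arrays of zinc fingers bind DNA and an N-terminal KRAB domain recruits the corepressor TRIM28 (KAP1). TRIM28 in turn recruits SETDB1, a histone methyltransferase that places trimethylation on lysine 9 of histone H3, a mark of silenced chromatin. Many KRAB zinc finger proteins bind transposable elements, and the zinc finger gene clusters themselves are known to carry the same mark over their gene bodies. ZNF274, itself a member, is known to bind the finger-coding exons of other ZNF genes and to bring SETDB1 to them.

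Gene counts per library ranged from 8921959 to 10199215, so that 3 counts corresponded to between 0.294 and 0.336 counts per 1000000 gene counts (CPM). SETDB1 had 651, 543 and 519 wild-type counts and 118, 106 and 118 knockout counts, a log2 fold change of -2.39 ± 0.08 (SE, adjusted p = 7.02e-43, edgeR). The knockout libraries agree within sampling noise (chi-square per degree of freedom of 0.956, 0.979 and 0.991), whereas the wild-type pairs gave 1.82, 1.03 and 2.00, so the spread behind the knockout values may be technical only. Most of the listed blood cell markers of the labelled origin were at or near 0. Of 11 haematopoietic markers, 8 (PTPRC, CD34, SPI1, GATA1, CD33, HBG1, MPO and LYZ) had at most 3 counts in every library. RUNX1 and TAL1 were expressed and made up most of the list's summed level. That level was 36.4 to 39.1 CPM in wild-type and 21.6 to 23.6 CPM in knockout libraries. TAL1 fell (log2 fold change -2.32), whereas RUNX1 did not pass the test (-0.14, adjusted p = 0.189, edgeR). Of 4 epithelial markers EPCAM (3.40) and KRT8 (0.47) rose, KRT18 did not pass the test and CDH1 was too low to test. The epithelial list summed to 141 to 155 CPM in wild-type and 205 to 217 CPM in knockout libraries. Of 5 fibroblast markers DCN and LUM were at 0, and the list summed to 17.5 to 17.6 and 17.8 to 19.8 CPM, mostly from COL1A1, which did not pass the test. THY1 (7, 4 and 15 counts against 1, 2 and 1) and COL1A2 (1, 4 and 1 against 0, 0 and 0) were too low to test. In bulk RNA, fewer cells of a type and less RNA per cell cannot be told apart, and the part of these markers in the results below was not tested.

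The question of the comparison was how expression of the 19q13.4 ZNF genes differed between HAP1 cells and the SETDB1 knockout line. The knockout libraries held more ZNF transcripts of this segment: the summed level of the 109 members was 1481, 1436 and 1447 CPM in the wild-type libraries against 1923, 1948 and 1934 CPM. Of 98 members with enough counts to be tested, 58 rose, 2 fell and 38 passed the test in neither direction. A rise or fall means a Benjamini-Hochberg adjusted p under 0.05 over all 13778 genes tested (edgeR, quasi-likelihood), by which 51.5% of all genes were called in either direction, 25.5% higher and 25.9% lower. The median log2 fold change was 0.30 over the members and -0.0012 over all genes. The distribution was uneven. By fitted fold change a group of 10 members rose over 8-fold, from at or near 0 counts in most cases. Over all genes 0.907% did so, as did 15 of the 145 tested ZNF genes elsewhere on chromosome 19. Of the other members called higher, 45 rose by less than 2-fold and 3 lay between. ZNF610 and ZNF528 had 0 counts in the wild type, so their fitted folds depend on the prior count. Measured against the floor of 3 counts, ZNF610 still exceeds 8-fold and ZNF528 does not, and the median of the members stays at 0.30.

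**Figure D1:**
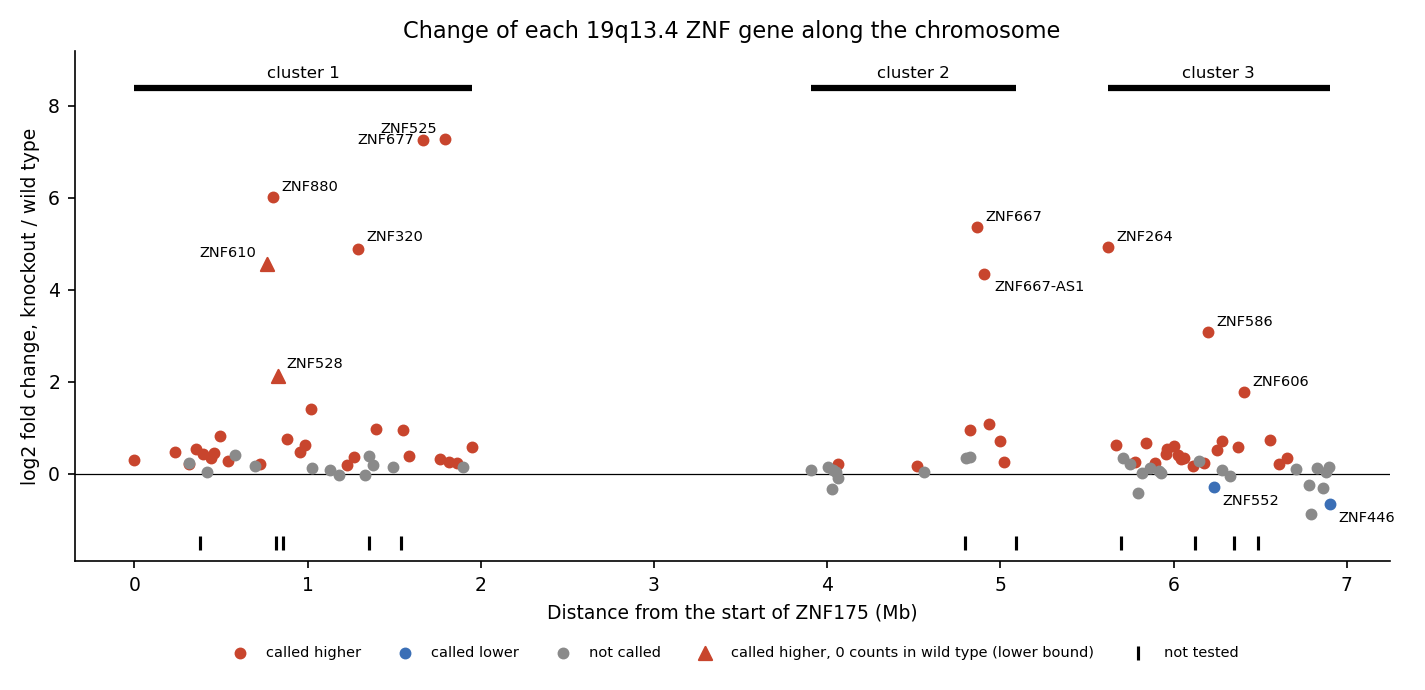
Log2 fold change (knockout over wild type, vertical axis) of each tested member against its distance in Mb from the start of ZNF175, with red points for members called higher, blue for lower and grey for not called. Triangles are the lower bounds of ZNF610 and ZNF528, which had 0 counts in the wild type, and ticks mark the 11 members not tested. Rises over 8-fold stand in all 3 clusters among members with smaller log2 fold changes.

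The filter on low counts asked for 1.02 CPM in 3 libraries, and 12 of the tested members did not reach this in every wild-type library. Of these 12, 10 were called higher. ZNF471 reached the cutoff in 2 wild-type libraries, and the other 9 were tested only through their knockout level. The calls of all 10 follow in part from the filter. The other 2, ZNF649-AS1 and ZNF497, were low in both genotypes and their groups overlapped. Of all 740 genes tested without reaching the cutoff in every wild-type library, 43.0% rose. Over 8-fold rises were found in 108 of these 740 genes and in 9 of the 12 members. The other 86 members were above the cutoff in every wild-type library, and 48 of them rose, 2 fell and 36 passed the test in neither direction, with a median log2 fold change of 0.26. Among all 13038 genes above the cutoff in every wild-type library, 24.5% rose and 27.4% fell, with a median of -0.01. Rises over 8-fold were found in 1 of the 86 members and in 17 of the 13038 genes. Among the 98 members tested, groups did not overlap in CPM, knockout above wild type, for 68 (29.1% of all genes tested). For 5 the knockout lay below the wild type (27% of all genes), and 25 overlapped. Of the 68, 10 were among the 12 members short of the cutoff, beside 347 of the 740 such genes. Above the cutoff the knockout was separately higher in 58 of the 86 members and 3667 of the 13038 genes. It was separately lower in 5 of these members and 3723 of these genes.

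**Figure D2:**
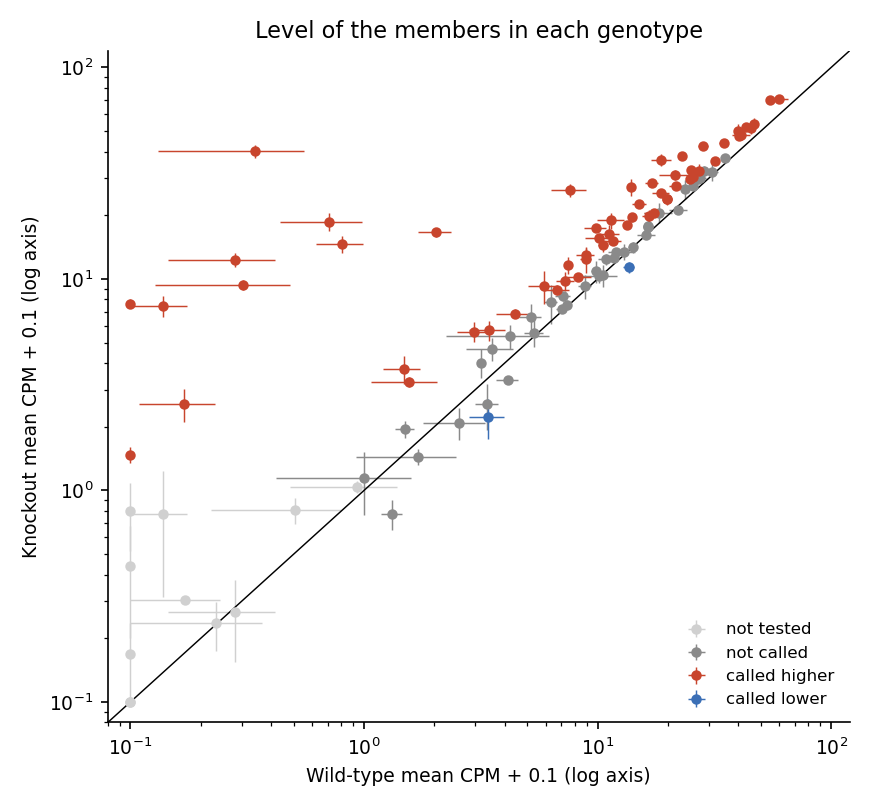
Mean CPM + 0.1 of each of the 109 members in the wild type (horizontal, log axis) and the knockout (vertical, log axis), with bars for the SD of 3 libraries and a line of equality. Most members lie close to and above the line, and the group at the upper left holds the members that were at or near 0 in the wild type.

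The members over 8-fold higher were ZNF610, ZNF880, ZNF528, ZNF320, ZNF677 and ZNF525 in the first cluster, ZNF667 and ZNF667-AS1 in the second, and ZNF264 and ZNF586 in the third. Together they summed to 3.82, 4.82 and 3.30 CPM in the wild-type libraries against 124, 134 and 133 CPM. The 10 were picked by their rise, so the gap in their sum follows from that choice. The other 99 members summed to 1477, 1432 and 1444 CPM against 1799, 1814 and 1800 CPM. Of the 10, 9 encode proteins with a KRAB match, and ZNF667-AS1 is a long non-coding RNA.

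ZNF610 (ENSG00000167554, chr19:52336245-52367778, plus strand) had 0, 0 and 0 wild-type counts and 78, 72 and 74 knockout counts. Its knockout mean was 7.54 ± 0.386 CPM (SD, n = 3), which was at least 23.8-fold higher than the floor of 3 counts per wild-type library (adjusted p = 1.77e-26). Its neighbour ZNF880 (ENSG00000221923, chr19:52369917-52385795, plus strand) had 1, 3 and 1 counts against 111, 118 and 135, a ratio of 69.8 in depth-scaled counts (95% counting interval 29.6 to 216, exact binomial). ZNF528 (ENSG00000167555, chr19:52397849-52418412, plus strand) was weaker, with 0, 0 and 0 counts against 14, 12 and 15, which put it at least 4.35-fold higher (adjusted p = 1.03e-09). The genotypes did not overlap at any of these genes, which follows from choosing them by their large rises.

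These genes lie next to each other, and the processed transcript ZNF528-AS1 starts 83 bp from ZNF528 on the opposite strand. ZNF528-AS1 had 0, 0 and 0 wild-type counts and 4, 7 and 10 knockout counts, at least 2.22-fold higher, too few for the test. The members on either side behaved otherwise. ZNF480, upstream of ZNF610, had 659, 484 and 570 counts against 697, 705 and 698 (log2 fold change 0.23 ± 0.05, adjusted p = 0.000177), a rise on an expressed gene. ZNF534, downstream of ZNF528, was near 0 in both genotypes, with 0, 0 and 0 against 0, 2 and 0 counts. The next member, ZNF578, was expressed in both and rose by a log2 fold change of 0.76 ± 0.19 (adjusted p = 0.000334).

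**Figure D3:**
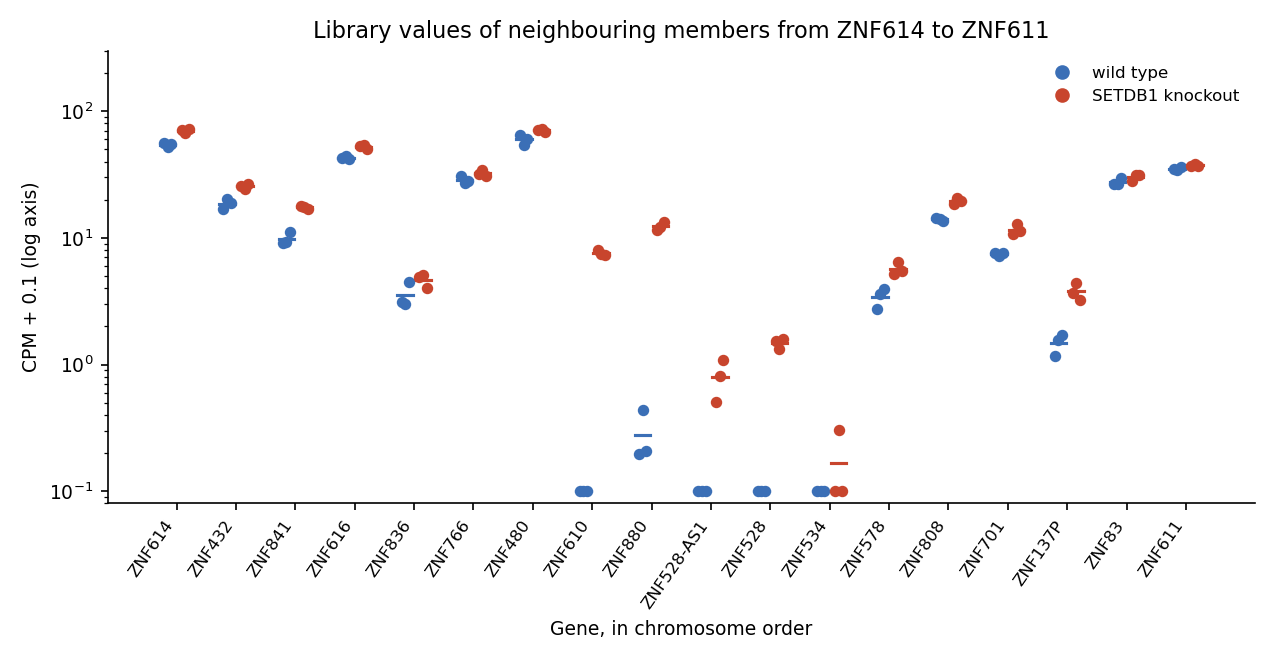
CPM + 0.1 (log axis) in each library for consecutive members in chromosome order from ZNF614 to ZNF611, wild type in blue and knockout in red, with bars at the means. ZNF610, ZNF880, ZNF528-AS1 and ZNF528 are at or near 0 in the wild-type libraries like ZNF534, which also stayed near 0 in the knockout, and the members on either side of these 5 are expressed in both genotypes.

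Further along the first cluster, ZNF525 (ENSG00000203326, chr19:53365693-53392217, plus strand) reached the highest knockout level of the 10. It had 4, 3 and 0 wild-type counts and 361, 411 and 425 knockout counts, or 0.243 ± 0.212 and 40.2 ± 2.86 CPM (SD, n = 3), for a log2 fold change of 7.28 ± 0.20 (adjusted p = 1.19e-48) and a count ratio of 164 (counting interval 79.4 to 409). ZNF677 (ENSG00000197928, chr19:53235381-53254898, minus strand), a gene known for promoter methylation in lung cancer, had 0, 1 and 0 counts against 77, 77 and 65. With a single wild-type read its ratio of 210 is known only to within 37.3 and 8334. ZNF320 (ENSG00000182986, chr19:52863790-52897693, minus strand) had 1, 1 and 0 counts against 29, 21 and 23, a ratio of 35.01 (counting interval 9.35 to 295). Only 21.5% of ZNF320's exon length is free of other genes, so its low counts come from a small part of the gene. All 3 of these genes were separated between the genotypes with no overlap, which again follows from their choice as large risers.

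In the second cluster ZNF667 and its head-to-head partner ZNF667-AS1, whose starts are 815 bp apart on opposite strands, were both raised. ZNF667 (chr19:56439325-56478065, minus strand) had 3, 0 and 3 wild-type counts and 91, 86 and 99 knockout counts, a ratio of 44.1 (counting interval 20.01 to 121). ZNF667-AS1 (chr19:56477250-56500666, plus strand), a long non-coding RNA known to be silenced by DNA methylation in many tumours, had 7, 8 and 5 counts against 132, 157 and 143. Its log2 fold change was 4.34 ± 0.21 (adjusted p = 8.00e-32). The libraries keep no strand, so reads in the short overlap of the pair cannot be told apart. The exon length of ZNF667-AS1 was 93.0% free of other genes and that of ZNF667 was 98.5% free.

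In the third cluster ZNF264 (chr19:57191500-57222846, plus strand), its first member, had 3, 7 and 7 wild-type counts and 161, 190 and 202 knockout counts, a log2 fold change of 4.93 ± 0.21 (adjusted p = 8.65e-36). ZNF586 (chr19:57769655-57819939, plus strand) was expressed at a low level in the wild type, with 20, 20 and 15 counts, against 153, 167 and 172 knockout counts, a log2 fold change of 3.08 ± 0.16 (adjusted p = 7.39e-30). ZNF586 was the only member of the 10 that passed the filter in every wild-type library.

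**Figure D4:**
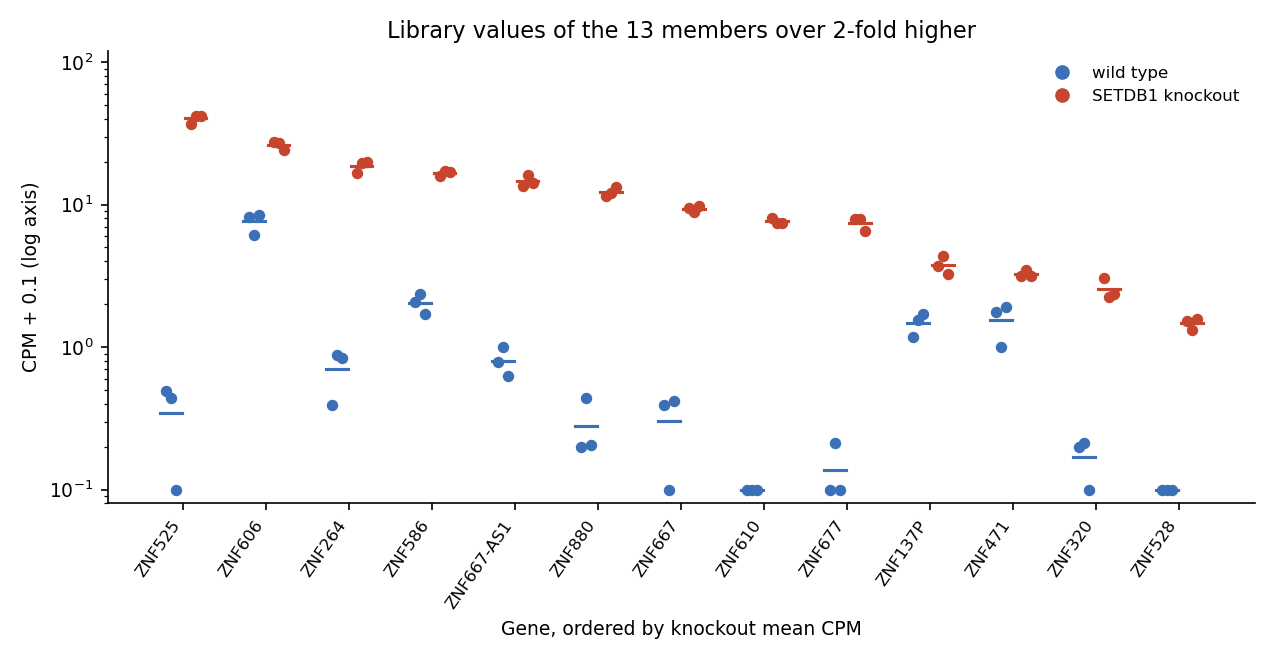
CPM + 0.1 (log axis) in each library for the 13 members called higher by at least 2-fold, ordered by their knockout mean, with wild type in blue, knockout in red and bars at the means. ZNF525 has the highest knockout level at 40.2 CPM. No gene has overlapping groups, which is no separate support because the genes were chosen by their rise.

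The 3 members that rose between 2-fold and 8-fold were ZNF606, ZNF137P and ZNF471. ZNF606 had 83, 54 and 79 wild-type counts and 267, 266 and 243 knockout counts, a log2 fold change of 1.78 ± 0.11 (adjusted p = 6.25e-26). The pseudogene ZNF137P had 11, 13 and 15 counts against 35, 42 and 32 (1.41 ± 0.25, adjusted p = 1.88e-06). ZNF471 had 17, 8 and 17 counts against 30, 33 and 31 (1.09 ± 0.26, adjusted p = 0.000238). In all, 13 members rose by at least 2-fold (3.61% of all genes did so) and none fell by that much in edgeR (4.18% of all genes). Of these 13, 10 had not reached the filter in every wild-type library. Among the 86 members that had, the share at least 2-fold higher was 3.49% (ZNF586, ZNF606 and ZNF137P), against 1.76% of all such genes.

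The sequences before the starts of 6 members are shown because most of the large rises began at or near 0 counts, and because the letters let the CpG density of the promoters be seen. Each is the 250 bases before the gene's start in RefSeq (GRCh38.p14), 5′ to 3′ on the gene's strand, with CpG dinucleotides in capitals. The first 4 belong to members over 8-fold higher. ZNF611 and ZNF813, which lie in the first cluster and did not pass the test, follow them.
ZNF880 (chr19:52369673-52369922, plus strand): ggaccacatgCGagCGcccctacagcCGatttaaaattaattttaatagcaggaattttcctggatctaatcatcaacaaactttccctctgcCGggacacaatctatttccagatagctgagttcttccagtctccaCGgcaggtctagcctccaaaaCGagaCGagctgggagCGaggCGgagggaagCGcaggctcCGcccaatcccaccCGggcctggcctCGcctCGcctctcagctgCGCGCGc
ZNF525 (chr19:53365455-53365704, plus strand): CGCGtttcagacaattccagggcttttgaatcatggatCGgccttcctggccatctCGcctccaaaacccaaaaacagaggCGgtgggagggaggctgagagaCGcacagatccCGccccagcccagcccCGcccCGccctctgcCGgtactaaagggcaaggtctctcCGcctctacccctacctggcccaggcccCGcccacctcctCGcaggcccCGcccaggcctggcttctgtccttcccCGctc
ZNF677 (chr19:53254874-53255123, minus strand): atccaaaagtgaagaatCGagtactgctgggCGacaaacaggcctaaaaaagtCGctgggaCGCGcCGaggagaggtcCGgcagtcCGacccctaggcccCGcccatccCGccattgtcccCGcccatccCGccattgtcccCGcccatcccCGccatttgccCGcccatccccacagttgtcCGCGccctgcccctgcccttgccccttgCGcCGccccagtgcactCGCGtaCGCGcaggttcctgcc
ZNF264 (chr19:57191250-57191499, plus strand): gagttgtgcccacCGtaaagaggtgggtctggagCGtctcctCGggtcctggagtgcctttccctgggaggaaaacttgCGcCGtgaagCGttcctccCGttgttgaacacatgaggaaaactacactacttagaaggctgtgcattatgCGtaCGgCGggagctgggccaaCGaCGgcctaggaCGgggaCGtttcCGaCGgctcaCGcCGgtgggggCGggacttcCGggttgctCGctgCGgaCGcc
ZNF611 (chr19:52735045-52735294, minus strand): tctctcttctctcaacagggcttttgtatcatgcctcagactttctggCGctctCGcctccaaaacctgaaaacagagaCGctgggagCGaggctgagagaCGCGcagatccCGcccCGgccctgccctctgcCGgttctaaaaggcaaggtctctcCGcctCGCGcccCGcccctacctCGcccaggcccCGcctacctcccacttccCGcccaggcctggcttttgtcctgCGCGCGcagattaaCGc
ZNF813 (chr19:53467483-53467732, plus strand): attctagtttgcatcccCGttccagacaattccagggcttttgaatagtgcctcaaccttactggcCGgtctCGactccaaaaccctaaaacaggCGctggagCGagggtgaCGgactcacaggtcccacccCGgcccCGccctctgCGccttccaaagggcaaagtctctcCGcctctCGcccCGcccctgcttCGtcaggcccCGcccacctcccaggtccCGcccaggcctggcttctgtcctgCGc

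ZNF525 and the 2 genes that did not pass the test have related promoters: in a global alignment ZNF525 was identical to ZNF611 at 75.6% and to ZNF813 at 72.3% of aligned columns, and ZNF611 and ZNF813 were identical at 73.1%. ZNF525 shared 47.9% with ZNF880, 54.2% with ZNF677 and 48.4% with ZNF264. The 3 genes had unlike wild-type levels. ZNF611 had 356, 305 and 338 wild-type counts and 363, 374 and 374 knockout counts (log2 fold change 0.09 ± 0.07, adjusted p = 0.289), and ZNF813 had 283, 222 and 261 against 277, 316 and 297 (0.15 ± 0.08, adjusted p = 0.0908), whereas ZNF525 had at most 4 counts in any wild-type library. The CpG counts of these promoters were 15 in ZNF525, 20 in ZNF611 and 16 in ZNF813.

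Promoter sequences were found for 92 members. The members' promoters were rich in CpG, with a median of 19 CpG in 250 bases (range 8 to 35), against 16 (range 0 to 60) over the 17391 genes with a sequence. Among the ZNF genes elsewhere on chromosome 19 the median was 14 (range 1 to 39). The median was 21 in the 9 promoters of members over 8-fold higher, 17 in the 38 of members that rose under 2-fold and 20 in the 34 of members tested but not called higher. The motif GGGCGG, the core of the GC box to which SP1 binds, was found on either strand in 61 of 92 members (66.3%, against 52.5% of all promoters and 63.3% of those of the ZNF genes elsewhere on chromosome 19). It was present in all 9 promoters of the members over 8-fold higher, in 52.6% of those that rose under 2-fold and in 73.5% of those not called higher. CCGGAA, the core of ETS factor sites, was found on either strand in 44.6% of the members, 18.1% of all promoters and 35.3% of those of the ZNF genes elsewhere on chromosome 19. Matches of the motifs may share letters, and a match is not evidence of binding.

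By position, the members fell into 3 clusters separated by more than 0.5 Mb between neighbouring starts. The first held 46 members (starts 51571298 to 53519527), the second 19 (55476332 to 56661981) and the third 44 (57191500 to 58474017). Over all genes tested 25.5% rose and 25.9% fell. In the first cluster 29 of 41 tested members rose and none fell (median log2 fold change 0.39). In the second 8 of 17 rose and none fell (0.22), and in the third 21 of 40 rose and 2 fell (0.25). At an unadjusted p under 0.05, edgeR and DESeq2 both found 0 members lower in the first and second clusters, and in the third edgeR found 3 and DESeq2 1. Among members above the cutoff in every wild-type library, 23 of 34 rose in the first cluster (median 0.35), 5 of 14 in the second (0.17) and 20 of 38 in the third (0.25), beside 24.5% of all such genes. Whether the clusters differed was not tested.

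Apart from its silent genes, the first cluster held many members with rises on an expressed gene. ZNF841 had 92, 82 and 103 wild-type counts and 173, 172 and 172 knockout counts (log2 fold change 0.83 ± 0.11, adjusted p = 2.57e-10). ZNF347 had 144, 120 and 132 counts against 245, 258 and 304 (0.96 ± 0.09, adjusted p = 1.06e-15). The pseudogene ZNF702P had 184, 185 and 161 against 329, 371 and 388 (0.97 ± 0.08, adjusted p = 1.69e-18). ZNF331, which is imprinted in some human tissues, closes the cluster and had 295, 238 and 272 counts against 416, 407 and 438 (0.58 ± 0.07, adjusted p = 7.65e-12). ZNF808, which is known to bind the MER11 endogenous retroviral repeats, had 146, 125 and 126 counts against 181, 201 and 197 (0.48 ± 0.10, adjusted p = 1.51e-05). Other expressed members of the cluster had values close to 0: ZNF600 (-0.01 ± 0.10) and ZNF888 (-0.01 ± 0.10) passed the test in neither direction, like ZNF611, which is known to bind SVA retrotransposons.

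The second cluster began with a run of 9 members, from ZNF628 to ZNF444 (chr19:55476332-56160893), none of which encodes a protein with a KRAB match. All 9 were above the cutoff in every wild-type library and tested, and their log2 fold changes lay between -0.33 and 0.22. Of the 9, 2 rose and 0 fell, beside 24.5% and 27.4% of all genes above that cutoff. ZNF581, a short zinc finger protein, had 430, 360 and 362 wild-type counts and 463, 452 and 495 knockout counts (0.22 ± 0.06, adjusted p = 0.00131). ZNF787 had 458, 417 and 414 against 540, 482 and 507 (0.18 ± 0.06, adjusted p = 0.00865), a call lost without knockout replicate 1 (adjusted p = 0.132), under DESeq2 (0.0648) and in a fit over all 12 libraries (0.147). The rest of the second cluster was mostly KRAB genes and non-coding RNAs named after them, with the pseudogene ZNF542P and with ZNF835, which has no KRAB match. ZNF582-AS1 had 27, 30 and 24 counts against 47, 58 and 60 (0.96 ± 0.19, adjusted p = 1.55e-05), whereas ZNF582, which starts 111 bp away on the opposite strand, had 32, 27 and 29 against 37, 33 and 47 and did not pass the test (0.34 ± 0.20, adjusted p = 0.156). ZNF470 had 124, 86 and 115 counts against 188, 167 and 205 (0.72 ± 0.10, adjusted p = 8.40e-09).

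In the third cluster, rises under 2-fold included ZNF329, with 232, 206 and 212 wild-type counts and 386, 371 and 372 knockout counts (log2 fold change 0.73 ± 0.07, adjusted p = 1.51e-14). ZNF814 had 161, 152 and 170 against 277, 271 and 290 (0.73 ± 0.08, adjusted p = 4.68e-12), although its exons overlap those of 4 other genes. ZNF304, known for recruiting a corepressor complex with TRIM28 and SETDB1 in colorectal cancer cells, had 206, 182 and 177 counts against 231, 224 and 254 (0.26 ± 0.08, adjusted p = 0.00684). ZNF274 had 454, 334 and 390 counts against 491, 474 and 464 (0.21 ± 0.06, adjusted p = 0.00294). ZNF417 and ZNF587, near-identical genes whose proteins are known to bind the HERV-K provirus, passed the test in neither direction (-0.03 ± 0.12 and 0.09 ± 0.08). Alignments that were not unique stood outside the gene counts, so values of such near copies are uncertain.

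The 2 members that fell, ZNF446 and ZNF552, both lie in the third cluster and fell by less than 2-fold. ZNF446 (chr19:58474017-58481230), the last member, had 33, 35 and 26 wild-type counts and 23, 24 and 16 knockout counts, or 3.31 ± 0.581 and 2.13 ± 0.479 CPM (SD, n = 3), a log2 fold change of -0.64 ± 0.24 (adjusted p = 0.0174). Of its exon length 41.5% is free of other genes. ZNF552 (chr19:57803841-57814913), which lies within the span of ZNF586, had 145, 121 and 120 counts against 117, 105 and 113 (-0.27 ± 0.11, adjusted p = 0.0311). Neither call held under DESeq2 (adjusted p = 0.109 and 0.147). Each was also lost when single libraries were left out: ZNF446 without wild-type replicate 2 (adjusted p = 0.103) or knockout replicate 3 (0.138), and ZNF552 without wild-type replicate 1, wild-type replicate 2, knockout replicate 2 or knockout replicate 3 (0.118, 0.0544, 0.113 and 0.0775). ZNF837, with 14, 10 and 11 counts against 8, 6 and 6, had the lowest fold change (-0.86 ± 0.39) and missed the threshold (adjusted p = 0.0544).

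The members also differed by the proteins they encode. In GENCODE translations 84 of the 99 coding members held a match to a KRAB box pattern, and the members had a median of 12 C2H2 finger matches (range 0 to 26, the highest in ZNF845). Among members with a KRAB match 78 were tested, of which 50 rose and 1 fell (median log2 fold change 0.34), and of the 69 of them above the cutoff in every wild-type library 41 rose (59.4%). Among coding members without a match 14 were tested, of which 4 rose and 1 fell (0.070), and of the 13 above the cutoff 4 rose (30.8%). The share over all genes above the cutoff was 24.5%, and the difference between the KRAB classes was not tested. Those 4 were ZNF581, ZNF787, ZNF134 (0.32 ± 0.06) and ZNF329. Of 10 non-coding members 6 were tested and 4 rose: ZNF137P, ZNF702P, ZNF582-AS1 and ZNF667-AS1. The median number of finger matches was 11 in the 9 coding members over 8-fold higher, 12 in those that rose under 2-fold and 11 in those tested and not called higher.

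Levels per kilobase of exon allow genes of different length to be compared. They divide by the whole exon length although ambiguous reads were not counted, so genes that share much of their exon length are set too low. Over all 109 members the median was 2.00 CPM per kb in wild-type cells against 2.73 in the knockout line, with a range of 0 to 23.2 and of 0 to 27.3. The 5 highest members were ZNF581 (23.2 in wild-type cells, 27.3 in the knockout line), ZNF480 (12.4 and 14.6), ZNF787 (12.3 and 14.01), ZNF614 (9.37 and 12.1) and ZNF616 (8.78 and 10.7). All 5 rose, ZNF787 with the limits given above, by log2 fold changes between 0.18 and 0.36. ZNF525, at 0.0338 CPM per kb in the wild type, reached 5.59 in the knockout and so passed the median of the members, whereas ZNF528 reached only 0.162. ZNF320 reached 0.296, a value set too low because only 21.5% of its exon length is free of other genes.

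In the wild type, 15 members had at most 3 counts in every wild-type library. Of these, 6 reached the knockout level needed for the test and were all called higher, which the filter makes likely, 6 also had at most 3 counts in every knockout library, and the other 3 were ZNF528-AS1, ZNF350-AS1 (0, 1 and 0 counts against 2, 11 and 7) and ZNF835 (0, 0 and 0 against 6, 2 and 2). No member had at most 3 counts in every knockout library and more than that in any wild-type library. In all, 11 members were too low to be tested, with no more than 11 counts in any knockout library. ZNF154, known for promoter methylation in many tumour types, had 7, 1 and 4 wild-type counts and 8, 7 and 6 knockout counts, and ZNF415 had 3, 0 and 1 against 2, 1 and 1. ZNF135 and ZNF816-ZNF321P had 0 reads in all 6 libraries. The exon length of ZNF816-ZNF321P is 0% free of other genes and ambiguous reads were not counted, so its 0 does not measure its expression.

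The zinc finger genes of the same segment that carry other names were a list of 14, of which 7 were tested. ZIK1, a KRAB gene, rose from 45, 38 and 32 counts to 540, 487 and 494 (log2 fold change 3.65, adjusted p = 3.18e-47). ZSCAN18 (1.63), ZSCAN5A (1.39) and the KRAB gene ZFP28 (0.54) also rose. ZSCAN22 (-0.50) and ZBTB45 (-0.33) fell, and MZF1 passed the test in neither direction (-0.24, adjusted p = 0.131). The imprinted genes PEG3 and ZIM2 had 0 reads in all 6 libraries, as did ZIM3 and ZSCAN4.

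The other genes of the segment were read as a measure of the chromosome around the members. Of 81 tested non-member genes that start at or beyond 51 Mb, 25 rose and 15 fell, with a median log2 fold change of 0.025. Over all genes 25.5% rose and 25.9% fell. Of the 81, 10 rose by at least 2-fold (12.3%, against 3.61% of all genes), 4 of them over 8-fold, and 1 fell by at least 2-fold. Without the 14 zinc finger genes under other names 21 of 74 rose and 13 fell. Of these 74, 7 rose by at least 2-fold, 3 of them over 8-fold. Of the ZNF genes elsewhere on chromosome 19, 104 of 145 tested rose and 2 fell, with a median of 0.52. Of these, 39 rose by at least 2-fold, 15 of them over 8-fold. Of the ZNF genes of other chromosomes 79 of 242 tested rose and 35 fell, with a median of 0.062. These are counts over gene groups with no test of the difference between them.

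**Figure D5:**
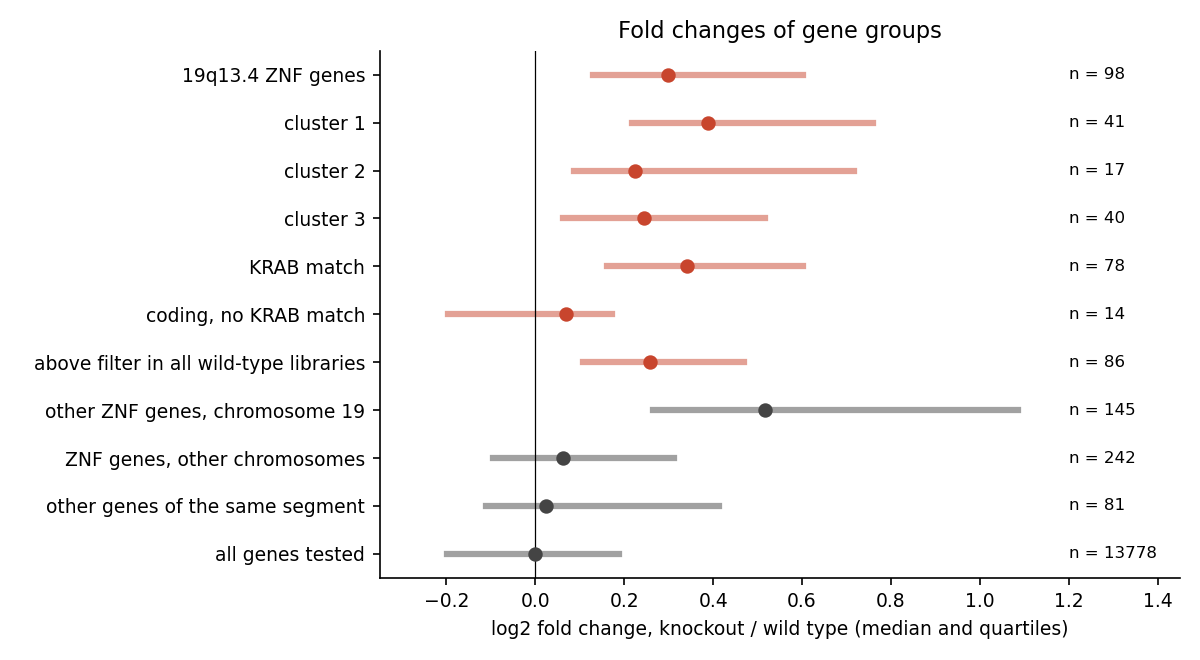
Median (point) and quartiles (bar) of the log2 fold change, knockout over wild type, for the members and their subsets (red) and for other gene groups (grey), with the number of genes tested at the right. The members' median is 0.30, that of the ZNF genes elsewhere on chromosome 19 is 0.52, and that of the other genes of the same segment is 0.025.

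A list of 28 genes, all tested, held factors of KRAB, TRIM28 and SETDB1 repression together with related chromatin factors (the machinery genes). Of these, 11 rose and 9 fell (39.3% and 32.1%, against 25.5% and 25.9% of all genes), with a median log2 fold change of -0.0037. By at least 2-fold, 1 rose (ATF7IP) and 1 fell (SETDB1). TRIM28, the corepressor that binds KRAB domains, was at 1138 ± 61.0 CPM and fell to 1060 ± 4.19 CPM (SD, n = 3), a small change (-0.11, adjusted p = 0.000167). ATF7IP, the nuclear partner that stabilises SETDB1, had 586, 502 and 543 counts against 1675, 1780 and 1800 and rose by a log2 fold change of 1.62 (adjusted p = 3.69e-49). SUV39H1, another methyltransferase of lysine 9, fell (-0.74), as did the chromatin remodeller CHD3 (-0.31), the heterochromatin proteins CBX5 (-0.25) and CBX3 (-0.09), the DNA methyltransferase DNMT1 (-0.23), its partner UHRF1 (-0.19) and SUMO2 (-0.08). The silencing factors FAM208A (TASOR, 0.30), MORC2 (0.27) and PPHLN1 (0.18) rose, as did ATRX (0.17), CBX1 (0.13), TRIM33 (0.12), HDAC1 (0.12), TRIM24 (0.09) and HDAC2 (0.08), together with the member ZNF274. Several of the smallest of these changes lost their call in other settings.

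The directional libraries were not tested, because their tables place about 94.6% of reads in no gene and the strand that was counted is not stated. They held 484 to 648 member counts per library in the wild type and 683 to 820 in the knockout, from 532021 to 676691 gene counts per library. Since the counted strand is not stated, a count there may come from the named gene or from its opposite-strand partner. Most members over 8-fold higher had next to no reads there, such as ZNF610 with 0, 0 and 0 wild-type counts and 1, 0 and 0 knockout counts. Genes well expressed in the non-directional libraries could be low there too. ZNF480 had 1, 1 and 1 wild-type counts. TRIM28 had 60, 65 and 57, against 11243, 10778 and 10359 in the non-directional libraries. ZNF814, with 170, 188 and 149, was not low. Few reads there therefore say little of the non-directional rises. With 61 members sharing exon positions with another gene, and 31 of them with a gene on the opposite strand, the 48 members without such overlap were also read alone. Of 40 tested, 23 rose and none fell (edgeR), beside 25.5% and 25.9% of all genes, with a median log2 fold change of 0.31. At an unadjusted p under 0.05, edgeR found 1 of the 40 lower and DESeq2 0. Of the 23, 4 rose over 8-fold (ZNF610, ZNF880, ZNF528 and ZNF264) and were tested only through their knockout level.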

How the data were processed

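The titles of the samples gave genotype, kit and replicate number. The authors deposited raw counts per gene, 1 HTSeq table a library, for all 12 libraries. The submitters' processing notes name Trim Galore 0.4.4, STAR 2.6.0a, SAMtools 1.9, Picard 2.23.8, HTSeq 0.11.1, DESeq2 3.14, bedtools and hg38. The roles and the strand setting are not given in the sources used here. The publication named with the series concerns another experiment, so its methods were not used. Tables of L1 elements were not used here.

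All 58735 gene IDs matched GENCODE release 29 on GRCh38, which gave symbols, positions, strands and exon overlaps. Lines that name no gene stayed out of library sizes: in the non-directional libraries reads in no gene were 4.00% to 4.40%, ambiguous reads 8.37% to 8.41% and reads not uniquely aligned 6.86% to 7.19%. Genes were filtered with filterByExpr (minimum count of 10, minimum total of 15), scaled by TMM and fitted in edgeR 4.0.16 (glmQLFit and glmQLFTest, R 4.3.3) over the 6 non-directional libraries; p-values were adjusted by Benjamini-Hochberg over all genes tested, at a threshold of 0.05. CPM values are counts per 1000000 gene counts. Standard errors are approximate, taken as the absolute log2 fold change over the root of F. The code was tested on simulated data. Counting intervals of ratios are exact binomial intervals at 95%, and the floor is 3 counts per library. Reads without molecular identifiers are not independent molecules, so both cover counting error only. P-values measure the spread between these libraries.

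KRAB boxes and C2H2 fingers were found by patterns in translations of GENCODE coding sequences. Promoters are RefSeq's 250 bases before the gene start, matched by symbol.

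Members, gene lists and tests were chosen with earlier results of these data known. Genes named by rule were SETDB1, the 15 members with the largest rise and up to 8 with the largest fall past the threshold (2 qualified), the 5 highest per kb, the largest riser of each cluster, members at 3 counts or fewer in every library of a genotype and past the threshold, and the machinery and other-symbol zinc finger genes past the threshold. Other genes were named after their values were seen, for their place or known role. Alternatives were DESeq2 1.42.0, other scaling, no filter, each library left out, a replicate block, the knockout libraries summed, all 12 libraries in 1 fit, a 2-fold limit, centring on neighbours and members without exon overlap.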

Additional observations from a re-analysis of the deposited data

Results flagged for a closer look

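The following 4 members had more reads in the directional libraries of the knockout than of the wild type, in data outside the comparisons above and with no test. ZNF135 had 0 reads in all non-directional libraries, but 80, 96 and 75 wild-type and 220, 239 and 193 knockout counts in the directional ones (mean 138 and 374 CPM). It overlaps ZSCAN18 on the opposite strand, which had 87, 77 and 80 wild-type and 257, 268 and 268 knockout counts in the non-directional libraries, and 1, 0 and 2 against 3, 5 and 2 in the directional ones. ZNF649-AS1, which overlaps ZNF649, averaged 63.1 CPM in the wild-type and 95.8 CPM in the knockout directional libraries. ZNF587, which overlaps ZNF814, averaged 19.1 and 30.6 CPM. ZNF497 averaged 69.6 and 91.4 CPM. The genotypes did not overlap at these 4 genes, which were flagged with their values known, so this is no separate support. ZNF432, ZNF787, ZNF549, ZNF550, ZNF814 and ZNF544 also had directional reads, and their genotypes overlapped. The share of all genes so separated in the directional libraries is not given here. Which strand was counted is not stated and was not tested, so these reads are not assigned here to the named gene or to a gene on the other strand.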

How the results depend on the processing

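The number of members higher in the knockout (58) ranged from 52 to 58 when single libraries were left out and from 45 (a single fit over all 12 libraries) to 60 in the other fits, with 49 under DESeq2 and 54 with the knockout libraries summed as 1 sample. It was 13 with a 2-fold limit and 23 among members without exon overlap, since both settings admit fewer genes. Of the 10 members over 8-fold higher, all were called higher in every fit except that over all 12 libraries, which tested 9 of them. The number lower (2) was 0 under DESeq2 (1 at an unadjusted p under 0.05, against 3 in edgeR), with the 2-fold limit and among members without exon overlap, 1 with no filter and 1 with the knockout libraries summed, and 0 to 2 with single libraries left out. The median log2 fold change of the members (0.30) was 0.32 with no filter, 0.24 in the fit over all 12 libraries, 0.27 after centring on the neighbours and 0.28 to 0.30 with single libraries left out. The neighbours' own median lay between -0.0016 and 0.070. The count of machinery genes higher (11) was 6 with the knockout libraries summed, 4 in the fit over all 12 libraries and 1 with the 2-fold limit, and 8 to 11 with single libraries left out. Machinery genes lower (9) came to 1 with the 2-fold limit, and to 7 to 10 with single libraries left out. Of the zinc finger genes under other names, 0 fell with the 2-fold limit, against 2. Apart from the neighbours' median, neither the direction of the members' median nor that of a named gene turned in these settings, and the cause of each change was not tested unless the setting itself admits fewer genes or libraries. Libraries with the same replicate number did not deviate together (correlations of -0.0012, -0.0045 and -0.025), so the numbers pair nothing. With the replicate number as a replicate block 59 members were higher and 2 lower. Depth, or shared exons in the case of ZNF816-ZNF321P, limits what can be said of the 11 members not tested. Depth also limits the folds of genes with under 10 wild-type counts in all.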
